A study of Mus musculus with 2 samples.

Results

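The 9 genes described here encode components and receptors of the complement system and were taken from a fixed list, of 32285 genes counted: *C1qa*, *C1qb*, *C1qc*, *C4b*, *C3*, *Cfp*, *Cfb*, *C3ar1* and *C5ar1*. All 9 had UMIs in both single-cell libraries of CD45+ cells from brown adipose tissue (BAT). Their levels were compared between leukocyte classes and between the libraries. The chains of C1q and *C4b* were highest in macrophage-like cells, *C3* in monocyte-like cells, *Cfp* in matrix macrophages, *C3ar1* in 2 macrophage subsets, and *C5ar1* in neutrophil-like cells and macrophages.

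Complement is a cascade of plasma and tissue proteins that tags particles for uptake and recruits leukocytes. C1q recognizes bound antibody and dying cells, and its A, B and C chains assemble into 1 molecule. C4, encoded by *C4b*, is cleaved next in the classical pathway. C3 is the component on which all pathways converge. Factor B (*Cfb*) and properdin (*Cfp*) form and stabilize the enzyme of the alternative pathway that cleaves more C3. The fragments C3a and C5a, called anaphylatoxins, act on the receptors encoded by *C3ar1* and *C5ar1*. Most plasma complement is made by the liver, but tissue macrophages are known as the main source of C1q, and adipose tissue is known as a site of local complement production.

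Both libraries came from male C57Bl/6 mice of the AdipoQ-CreERT2 ATGLfl/fl genotype, labelled as 16 weeks old, whereas the study's text gives a younger age. The control mice received vehicle. The AdipoΔ/Δ mice received tamoxifen, injected every 2 days for 1 week and followed by 2 weeks of rest. The inducible Cre is driven by the adiponectin promoter, so that the floxed gene of the lipase ATGL (*Pnpla2*) is meant to be deleted in adipocytes and not in the leukocytes measured here. The controls carry the same Cre and floxed alleles, only the AdipoΔ/Δ mice had tamoxifen, and the number of mice behind a library was not stated. Each condition had 1 library, so that genotype, tamoxifen and library cannot be told apart, no test between conditions was possible, and intervals in parentheses are 95% intervals that cover counting error only.

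After filtering, 2279 control and 2016 AdipoΔ/Δ cells remained, with 10753113 and 11316418 UMIs, a UMI being 1 counted transcript molecule. Joint clustering without the complement genes gave 18 clusters, of which 15 were named from marker lists and formed 12 classes. Macrophage-like cells were 139 in the control and 429 in the AdipoΔ/Δ library, in an M2-like (77 and 161 cells), a matrix (49 and 180) and a lipid-associated subset (13 and 88). The macrophage genes *Adgre1*, *Mertk*, *Cd68*, *Fcgr1*, *Apoe*, *Ms4a7*, *Lgmn* and *Cd81* all had UMIs in the M2-like and lipid-associated cells of both libraries. In the matrix subset, whose name rests on its subset list, *Fcgr1* and *Ms4a7* were at 0 in the control library. The cluster of B cell-like cells also held haemoglobin RNA, and 4 barcodes occurred in both libraries. Levels are the summed UMIs of a class per 1000000 UMIs of that class (CPM), and levels are compared within a gene only, since no value was scaled to gene length. *Cd68*, *Lgmn* and *Ms4a7* were lower in matrix than in Ly6Chigh monocyte-like cells of both libraries. *Cd68* was at 130 and 164 CPM in matrix cells, beside 222 and 304 CPM. *Mertk* was higher in matrix cells of both libraries (14.5 and 10.7 CPM, beside 0 and 4.16 CPM), and *Adgre1* in the control only. The AdipoΔ/Δ over control ratio had a median of 0.11 on the log2 scale over all genes in macrophage-like cells and of 0.10 in monocyte-like cells, so that ratios near these values mark no departure from other genes.

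**Figure D1:**
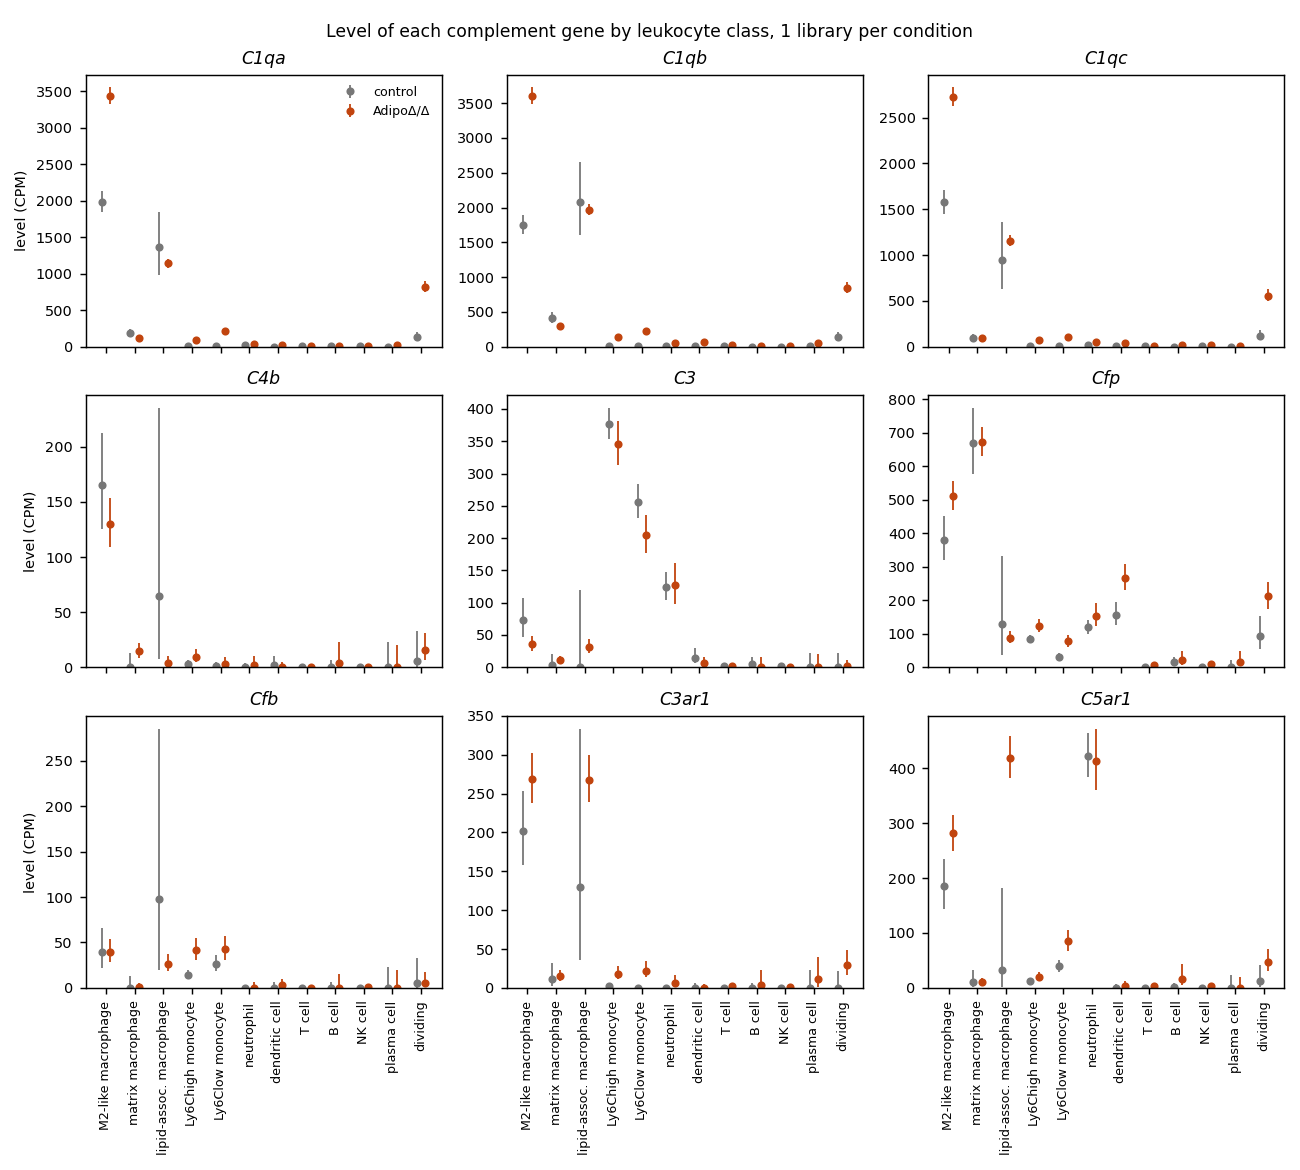
Level in CPM (vertical axes, linear, a scale for each gene) of each complement gene in 12 leukocyte classes, with points for the control (grey) and AdipoΔ/Δ (orange) library and bars for exact 95% Poisson intervals. The C1q genes and *C4b* peak in M2-like or lipid-associated macrophages, *C3* in Ly6Chigh monocytes, *Cfp* in matrix macrophages, and *C5ar1* in neutrophils with, in the AdipoΔ/Δ library, lipid-associated macrophages.

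The promoters of a C1q gene and of *C3*, a gene highest in macrophages and one highest in monocytes, are shown with matches to motifs of myeloid transcription factors in capitals. The 250 bases before the start of transcription were read from RefSeq (GRCm38.p6) for 6 of the 9 genes. *C1qa*, *Cfb* and *C4b* were not matched. The window of *C1qb* is chr4:136886201-136886450 and that of *C3* chr17:57228137-57228386, both on the minus strand and written 5′ to 3′.
C1qb: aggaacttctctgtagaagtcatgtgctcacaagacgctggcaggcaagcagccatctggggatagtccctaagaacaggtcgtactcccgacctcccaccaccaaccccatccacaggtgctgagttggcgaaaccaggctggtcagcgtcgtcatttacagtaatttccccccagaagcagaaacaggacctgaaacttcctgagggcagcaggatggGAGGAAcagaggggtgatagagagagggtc
C3: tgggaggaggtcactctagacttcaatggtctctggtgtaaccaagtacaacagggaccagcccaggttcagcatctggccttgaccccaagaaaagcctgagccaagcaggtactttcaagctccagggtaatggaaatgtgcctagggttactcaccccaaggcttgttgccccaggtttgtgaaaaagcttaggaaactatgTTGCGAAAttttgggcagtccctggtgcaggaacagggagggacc
In *C1qb* the capitals mark GAGGAA, the core bound by PU.1, which begins 30 bases before the start. In *C3* they mark a match to TTGCNNAA, the site of C/EBP factors, which begins 45 bases before the start. Both strands were searched, and no match overlapped another. *C1qc* also held 1 GAGGAA match, 193 bases before its RefSeq start, and the windows of *C3ar1*, *C5ar1* and *Cfp* held neither motif. The gene coordinates given below come from another annotation, whose starts can differ. By those coordinates the windows of *C1qc* (chr4:136892915-136893164) and *C5ar1* (chr7:16259339-16259588) lie largely inside the genes. None of the 6 windows held the motif of interferon regulatory factors. Of 32851 promoters, 23.3% held GAGGAA, 9.56% TTGCNNAA and 2.98% the interferon regulatory factor motif within 250 bases, so that such a match is common among all genes and is given as a description only.

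The 3 genes of C1q lie side by side on chromosome 4 in GRCm38, *C1qb* at 136880129 to 136886187, *C1qc* at 136889804 to 136893065 and *C1qa* at 136895917 to 136898803, all on the minus strand. They were highest in M2-like and lipid-associated macrophages of both libraries. In M2-like cells, *C1qa* was at 1984 CPM (1841 to 2136) in the control and 3440 CPM (3329 to 3555) in the AdipoΔ/Δ library. In lipid-associated cells it was at 1367 CPM (985 to 1848), from 42 UMIs, and at 1144 CPM (1083 to 1207). Matrix macrophages held much less, with 185 and 123 CPM, so that the matrix subset lay apart from both other subsets beyond counting error in each library.

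The same order of subsets held for *C1qc*, with 1575 and 2728 CPM in M2-like cells, 944 and 1158 CPM in lipid-associated cells and 90.5 and 89.4 CPM in matrix cells. For *C1qb*, the control library had 2084 CPM (1605 to 2661) in its 13 lipid-associated cells and 1749 CPM (1614 to 1892) in M2-like cells, with intervals that overlap. In the AdipoΔ/Δ library *C1qb* was at 3609 CPM in M2-like and 1968 CPM in lipid-associated cells, which did not overlap. M2-like cells held 77.6% of the *C1qa* UMIs of the control and 59.0% of those of the AdipoΔ/Δ library.

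The chains were not present in the same proportion in each subset. Of the C1q UMIs in M2-like cells, *C1qb* gave 32.9% (30.8 to 35.1) in the control and 36.9% (36.0 to 37.9) in the AdipoΔ/Δ library. It gave 59.8% (52.4 to 66.8) and 58.7% (55.0 to 62.3) of them in matrix cells. Lipid-associated cells lay between, with 47.4% (38.8 to 56.2) and 46.1% (44.7 to 47.5). In each library, the *C1qb* share of matrix cells was above that of M2-like cells, with intervals apart. These intervals take each UMI as a separate draw and do not cover differences between cells. In matrix cells 1 cell held 23.8% of the C1q UMIs in the control and 23.5% in the AdipoΔ/Δ library.

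Not every cell of a class carried C1q. All 3 chains were detected in 135 of the 161 M2-like cells of the AdipoΔ/Δ library (83.9%) and in 55 of 77 of the control (71.4%). In matrix cells this was true of 19 of 180 (10.6%) and 8 of 49 (16.3%). The 18 matrix cells of the AdipoΔ/Δ library with the most C1q held 76.6% of the C1q UMIs of the subset, whereas the top 17 of the M2-like cells held 33.9%. C1q in the matrix subset thus came from few of its cells.

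**Figure D2:**
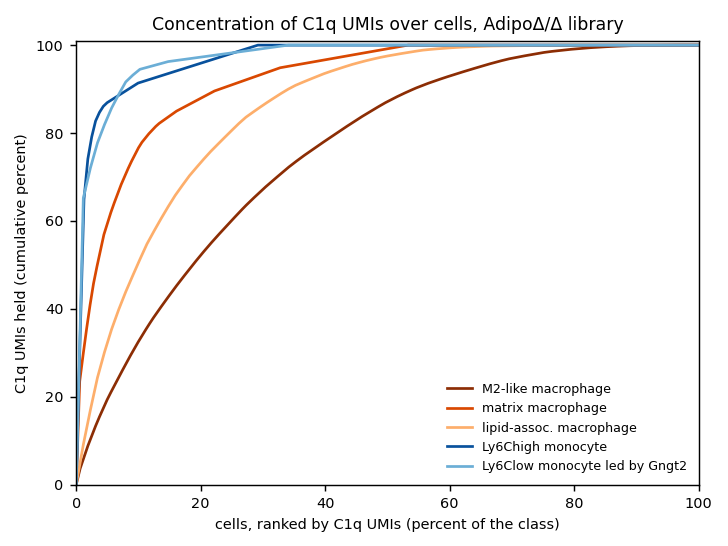
Cumulative percent of the C1q UMIs of a class (vertical axis) held by its cells ranked from most to fewest C1q UMIs (horizontal axis, percent of cells), for 5 classes of the AdipoΔ/Δ library. The lines of the monocyte clusters and of matrix macrophages climb within the first 10% of the cells, to 91.6%, 94.5% and 76.6%, whereas that of M2-like macrophages reaches 33.9% there.

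T, B and NK cell-like cells, which are not known to transcribe C1q, gave the background. Their summed C1q level was 10.6 CPM (7.54 to 14.5) in the control and 41.3 CPM (34.3 to 49.2) in the AdipoΔ/Δ library. The share of these cells with a *C1qa* UMI was 1.74% of 861 and 6.80% of 544 cells, at median depths of 3400 and 4837 UMIs. M2-like cells stood at 75.3% and 88.8%, at 3336 and 5671 UMIs. After thinning each cell to 1000 UMIs, the shares were 0.648% and 1.79% in lymphoid and 67.6% and 78.9% in M2-like cells.

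Whether C1q differed between the libraries within a macrophage subset could not be settled from these data, since the value moved with the cluster borders. In M2-like cells the summed C1q level was 5308 CPM (5072 to 5553) in the control and 9777 CPM (9589 to 9968) in the AdipoΔ/Δ library, a ratio of 1.84 (1.75 to 1.94). Over the alternatives that kept this subset the ratio ran from 1.04 to 1.90. At a clustering resolution of 2.0, the levels were 9318 and 11962 CPM, in 52 and 115 cells. There, 25 control and 45 AdipoΔ/Δ cells of the subset had joined another cluster. In matrix cells the ratio was 0.751 (0.639 to 0.887), from 189 and 719 UMIs, and in lipid-associated cells 0.972 (0.819 to 1.16).

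The cells that moved formed a macrophage-like cluster led by *Aif1*, *Tmem176b* and the antigen presentation genes *H2-DMb1*, *H2-Aa* and *H2-Ab1*, described here after its values were seen. It held 71 control and 66 AdipoΔ/Δ cells, with median depths of 5170 and 5649 UMIs. At the main resolution of 1, 34 of these control cells were Ly6Clow monocyte-like and 25 M2-like, as were 14 and 45 of these AdipoΔ/Δ cells. Its summed C1q level was 252 CPM (207 to 305) in the control and 4182 CPM (3998 to 4372) in the AdipoΔ/Δ library, from 106 and 1937 UMIs. C1q UMIs were found in 12 of 71 and 47 of 66 cells, and the richest cell held 17.9% and 15.3% of them.

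In the same cluster, *C3ar1* was at 11.9 CPM (3.86 to 27.8) in the control and 153 CPM (120 to 193) in the AdipoΔ/Δ library. *C5ar1* was at 11.9 and 132 CPM and *Cfp* at 66.6 and 229 CPM. *C3* did not follow them, with 152 CPM (117 to 195) and 140 CPM (108 to 179). The macrophage markers summed to 3073 CPM and 4382 CPM. Their part in the C1q difference was not tested.

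Taking all macrophage-like cells together, C1q was at 3343 CPM (3206 to 3485) in the control and 4416 CPM (4347 to 4485) in the AdipoΔ/Δ library, a ratio of 1.32. The subsets made up different shares, with 55.4% and 37.5% of these cells in the M2-like subset. Weighted to the same subset shares, the ratio was 1.42. Over all alternatives it ran from 0.996, with each cell weighted equally, to 4.61, with a mitochondrial limit of 2%, at which no M2-like cluster was named. In all cells of a library, C1q was at 237 and 1661 CPM, values that include the number of macrophage-like cells, 139 of 2279 in the control and 429 of 2016 in the AdipoΔ/Δ library.

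Monocyte-like cells of the AdipoΔ/Δ library also carried C1q, mostly in few cells. The summed level was 18.8 CPM (14.9 to 23.6) in 746 control cells and 404 CPM (378 to 432) in 467 AdipoΔ/Δ cells, beside the lymphoid background of 10.6 and 41.3 CPM. It was also higher in the AdipoΔ/Δ library in dendritic cell-like (5.54 and 139 CPM), neutrophil-like (49.7 and 129 CPM) and dividing cells (392 and 2225 CPM). In the AdipoΔ/Δ library, 12 of the monocyte-like cells had 10 or more C1q UMIs and held 82.1% of their total. One cell of the Ly6Clow cluster led by *Gngt2* held 296 of the 454 UMIs of that cluster.

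These 12 cells had a median of 7314 UMIs, against 3284 UMIs over all monocyte-like cells of that library, and macrophage markers at 4049 CPM against 2282 CPM. Of the 12, 2 were among the 5% of barcodes with the highest doublet scores. Their part in the C1q difference was not tested. Without such cells in either library, a comparison added after seeing the data, C1q was at 10.9 CPM in the control and 76.4 CPM in the AdipoΔ/Δ library, a ratio of 6.97 (4.96 to 9.98). The lymphoid background, over all its cells, had a ratio of 3.89 (2.70 to 5.73).

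*C4b* (chromosome 17, 34728380 to 34743882) encodes complement C4 and is counted beside its near-identical copy *C4a*, so that reads could be split between them. It was concentrated in M2-like cells, at 165 CPM (126 to 213) in the control and 130 CPM (109 to 153) in the AdipoΔ/Δ library. These cells held 79.7% of the 74 control UMIs and 69.4% of the 196 AdipoΔ/Δ UMIs. In lipid-associated cells of the AdipoΔ/Δ library, which shared high C1q with them, *C4b* was at 4.30 CPM (1.39 to 10.0), from 5 UMIs. *C4b* and C1q therefore parted between the subsets in that library.

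*C3* (chromosome 17, 57203970 to 57228136) was highest in monocytes and low in macrophages. Ly6Chigh monocyte-like cells had 377 CPM (353 to 401) in the control and 346 CPM (314 to 381) in the AdipoΔ/Δ library, with 62.0% and 51.4% of all *C3* UMIs. This was 5.33 times (4.80 to 5.92) and 8.91 times (7.74 to 10.3) the level of all other cells of the library. The class was the highest for *C3* under all 8 clusterings tried, in both libraries.

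Ly6Clow monocyte-like cells came second, with 256 CPM (231 to 283) and 205 CPM (177 to 236). Their 2 clusters differed. The cluster led by *Gngt2* had 320 CPM (283 to 361) and 266 CPM (217 to 322), and the one led by *Ace* 179 CPM (149 to 214) and 163 CPM (131 to 200), apart in both libraries. *Ly6c2*, the gene of the Ly6C antigen, was at 466 and 440 CPM in the former and at 7.33 and 54.2 CPM in the latter.

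Neutrophil-like cells had 125 CPM (104 to 148) and 127 CPM (98.4 to 161) of *C3*. In macrophage subsets *C3* was low, with 72.8 and 35.3 CPM in M2-like, 3.62 and 10.7 CPM in matrix and, in the AdipoΔ/Δ library, 31.8 CPM in lipid-associated cells. Lymphoid cells had 2.72 CPM and 1.33 CPM, from 10 and 4 UMIs. A *C3* UMI was found in 70.5% of 342 control and 67.7% of 161 AdipoΔ/Δ Ly6Chigh cells, against 1.05% and 0.551% of lymphoid cells. Thinned to 1000 UMIs, the Ly6Chigh shares were 32.0% and 27.1% and the lymphoid shares 0.518% and 0%, the latter from 502 cells which allows a share of up to 0.598%.

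Between the libraries, the *C3* ratio had an interval that includes 1 in Ly6Chigh cells (0.919, 0.817 to 1.03) and neutrophil-like cells (1.02, 0.747 to 1.38). It was 0.801 (0.671 to 0.954) in Ly6Clow cells and 0.485 (0.286 to 0.834) in M2-like cells, the latter from 26 and 37 UMIs. Which library was higher in M2-like cells moved with the cluster borders. The control stayed higher at a resolution of 0.5 (33.8 and 28.0 CPM). It was lower at a resolution of 2.0 (15.4 and 16.3 CPM) and without integration (18.1 and 22.8 CPM). It was also lower with 500 genes, at a mitochondrial limit of 5% and without high doublet scores. Control M2-like cells held more *Ly6c2* (319 beside 35.3 CPM), whose part in this ratio was not tested. Over all monocyte-like cells the *C3* ratio was 0.857 (0.777 to 0.944), and 0.813 to 0.890 over the alternatives. Over all cells *C3* was at 142 CPM in the control and 71.5 CPM in the AdipoΔ/Δ library, where Ly6Chigh cells were 15.0% and 7.99% of cells.

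**Figure D3:**
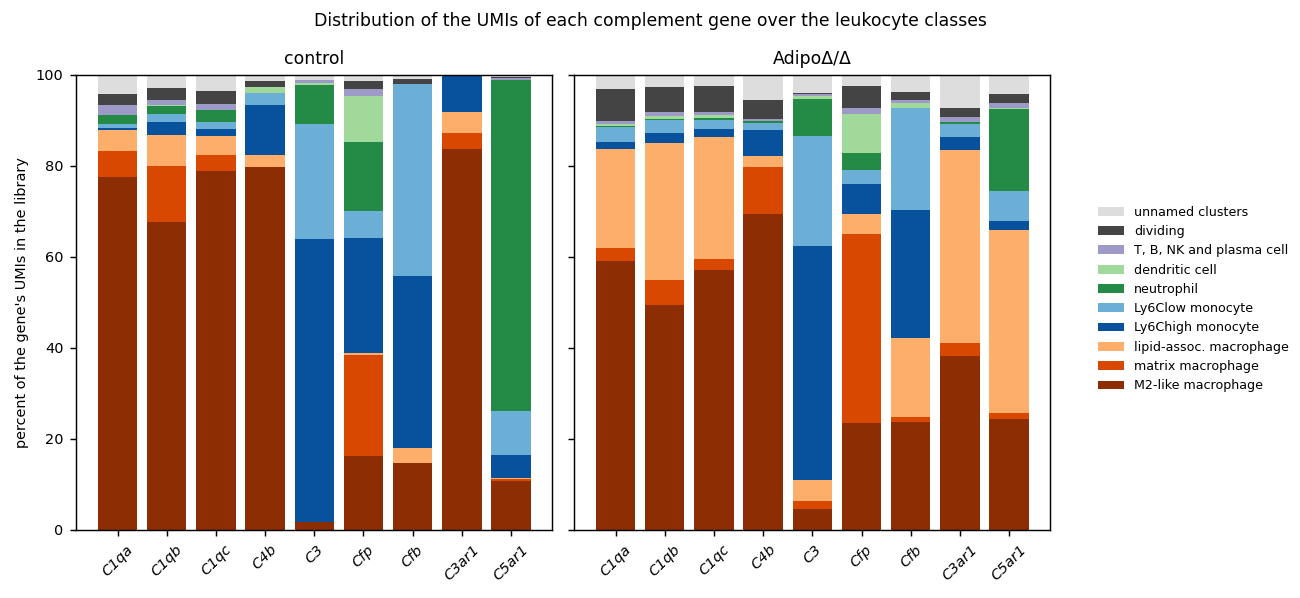
Percent of the UMIs of each complement gene (vertical axis) that each class held, in the control (left) and AdipoΔ/Δ (right) library. Monocytes hold most *C3* UMIs in both libraries, M2-like macrophages most *C4b* UMIs, and the neutrophil share of *C5ar1* is 72.9% in the control and 18.0% in the AdipoΔ/Δ library.

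*Cfp* (chromosome X, 20925454 to 20931555) encodes properdin, the only known positive regulator of complement. Its highest level was in matrix macrophages, at 670 CPM (577 to 774) in the control and 673 CPM (631 to 717) in the AdipoΔ/Δ library. The ratio between the libraries there was 1.00 (0.857 to 1.18). A UMI was found in 83.7% of 49 and 80.6% of 180 matrix cells, and after thinning in 36.7% and 41.3%. Lymphoid cells had 1.16% and 4.23%, and 0.648% and 1.20% after thinning.

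M2-like cells followed with 381 CPM (319 to 450) and 512 CPM (469 to 557) of *Cfp*, below the matrix cells in both libraries. The size of this gap moved with the borders of the M2-like cluster, since at a resolution of 2 M2-like cells were at 604 and 616 CPM, and without the cells of the highest doublet scores at 677 and 638 CPM, beside 680 and 682 CPM in matrix cells. Dendritic cell-like cells had 157 CPM (125 to 194) and 268 CPM (232 to 308), and neutrophil-like cells 119 and 154 CPM. Lipid-associated cells, at 88.5 CPM (72.2 to 107) in the AdipoΔ/Δ library, lay below both other subsets. In the AdipoΔ/Δ library the order of matrix and lipid-associated cells for *Cfp* was thus the reverse of that for C1q.

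The share of the *Cfp* UMIs in matrix cells was 22.1% in the control and 41.3% in the AdipoΔ/Δ library, in which these cells were 2.15% and 8.93% of cells. Over all cells *Cfp* was at 77.9 and 201 CPM. In the dendritic cell-like class the ratio was 1.71 (1.32 to 2.23), and in Ly6Chigh cells 1.46 (1.17 to 1.81). The lymphoid level was 3.53 and 8.99 CPM.

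*Cfb* (chromosome 17, 34856374 to 34862518), the protease of the alternative pathway, had 95 and 178 UMIs in all. Monocyte-like cells held 80.0% of them in the control and 50.6% in the AdipoΔ/Δ library. Ly6Chigh cells were at 14.3 CPM (10.0 to 19.8) and 41.6 CPM (30.9 to 54.8), and Ly6Clow cells at 26.5 and 42.3 CPM. M2-like cells were at 39.2 and 40.0 CPM, and the 13 control lipid-associated cells at 97.7 CPM (20.1 to 285), from 3 UMIs. No *Cfb* UMI was found in the 314 and 173 neutrophil-like cells, which set upper limits of 3.46 and 6.99 CPM. Neutrophil-like cells thus had *C3* UMIs and no *Cfb* UMI, and monocyte-like cells had both.

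*C3ar1* (chromosome 6, 122847138 to 122856161), the receptor for C3a, was highest in macrophages, with 79 of its 86 control UMIs in macrophage-like cells. M2-like cells had 201 CPM (158 to 254) and held 72 of these UMIs, and Ly6Clow, neutrophil-like and lymphoid cells had none. In the AdipoΔ/Δ library, M2-like cells were at 269 CPM (238.3 to 302) and lipid-associated cells at 268 CPM (239 to 300), which do not differ beyond counting error. These 2 subsets held 38.2% and 42.3% of the 738 UMIs. Which library was higher in M2-like cells moved with the cluster borders. The control was higher at a resolution of 2.0 (348 and 298 CPM) and without high doublet scores (385 and 310 CPM). It was also higher without integration (316 and 291 CPM) and with 500 genes (313 and 304 CPM). It was lower at a resolution of 0.5 (267 and 275 CPM) and at a mitochondrial limit of 5% (287 and 298 CPM).

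In control lipid-associated cells *C3ar1* was at 130 CPM (35.5 to 333), from 4 UMIs, so that no difference from the AdipoΔ/Δ library was detectable at this depth. Matrix cells had 10.9 and 15.0 CPM. An unnamed cluster led by the mast cell gene *Mcpt4* had 239 CPM (175 to 317) in its 146 AdipoΔ/Δ cells and no UMI in its 26 control cells, an upper limit of 66.8 CPM. Its best-scoring marker list was that of macrophages (0.794, with 7 of 9 markers detected). It was left unnamed for its low depth and leading genes, and is not counted among the macrophage-like cells. Its AdipoΔ/Δ cells had a median of 807.5 UMIs and also 2021 CPM of C1q.

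*C5ar1* (chromosome 7, 16246743 to 16259540), the receptor for C5a, was the gene shared between neutrophils and macrophages. Neutrophil-like cells had 423 CPM (385 to 464) in the control and 413 CPM (360 to 472) in the AdipoΔ/Δ library, a ratio of 0.977 (0.827 to 1.15). They held 72.9% and 18.0% of its UMIs. Lipid-associated cells of the AdipoΔ/Δ library had 419 CPM (383 to 458), within the interval of the neutrophils, and which of them was higher changed between clusterings.

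M2-like cells had 185 CPM (143 to 235) and 281 CPM (250 to 315) of *C5ar1*, and Ly6Clow monocyte-like cells 39.1 and 84.7 CPM. The matrix subset had 10.9 and 11.4 CPM, so that both receptors were low in the cells with the most *Cfp*. In the 13 control lipid-associated cells 1 UMI was found, or 32.6 CPM (0.824 to 181), below the AdipoΔ/Δ interval of 383 to 458, a ratio of 12.9 with an interval from 2.30 to 510. Control cells of this subset had a median of 1348 UMIs and AdipoΔ/Δ cells one of 12010.5 UMIs, and whether the depth bears on this was not tested. Lymphoid cells had 0.544 and 3.99 CPM.

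Both receptors were detected together in 77 of 161 M2-like cells of the AdipoΔ/Δ library (47.8%) and in 19 of 77 of the control (24.7%). In lipid-associated cells of the AdipoΔ/Δ library this was 61 of 88 (69.3%). These shares were counted at the main cluster borders only. In neutrophil-like cells *C5ar1* stood alone, in 215 of 314 control cells with both receptors in 0, which allows a share of cells with UMIs of both of up to 0.955% (3 counts of the total), and in 108 of 173 AdipoΔ/Δ cells with both in 2. After thinning to 1000 UMIs both were found in 4.05% and 8.55% of M2-like cells and in 6.90% of AdipoΔ/Δ lipid-associated cells. The median depth was 3336 and 5671 UMIs in M2-like and 2968.5 and 2720 UMIs in neutrophil-like cells.

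**Figure D4:**
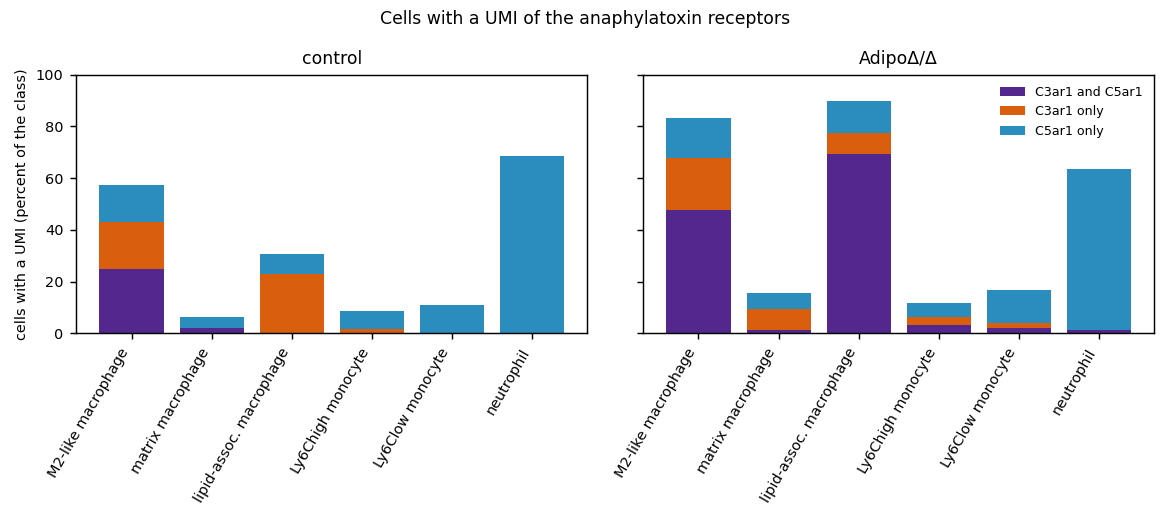
Percent of the cells of 6 myeloid classes (vertical axis, unthinned) with UMIs of *C3ar1* and *C5ar1* (purple), *C3ar1* only (orange) or *C5ar1* only (blue), in the control (left) and AdipoΔ/Δ (right) library. Neutrophils show *C5ar1* without *C3ar1*, and M2-like and, in the AdipoΔ/Δ library, lipid-associated macrophages show both.

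As a count over the 9 genes, each with at least 20 UMIs in the class over both libraries, 1 was at least 1.5-fold higher in AdipoΔ/Δ than in control macrophage-like cells (*C5ar1*, ratio 2.10, 1.64 to 2.72). Of 8956 genes with this depth, 20.4% were. Lower by this fold were *C3* (0.606, 0.390 to 0.970) and *C4b* (0.485, 0.359 to 0.663), 2 of 9, against 10.7% of all genes. Weighted to the same subset shares, *C3* was at 0.974 and *C4b* at 0.682, neither of them past this fold. By that weighting *C5ar1* (2.89), *C3ar1* (1.58) and *C1qc* (1.54) were higher by this fold and *Cfb* (0.527) lower. No interval was made for these weighted ratios, which give the lipid-associated subset a weight of 27.9%. Of the 13 control cells of that subset, 3 had a *C3ar1* UMI and 1 a *C5ar1* UMI, and *Cfb* had 3 UMIs. The direction of *C3* was not stable, since its ratio was above 1 at a resolution of 0.5, without integration, with a minimum of 500 detected genes and without the cells of the highest doublet scores, and that of *C4b* was above 1 at a mitochondrial limit of 2%. Without weighting, the share of genes that were higher is near the background. The count was not stable, since at a mitochondrial limit of 5% and at a resolution of 2.0, 5 genes were higher and 2 lower. The share of all genes past this fold was not counted at these settings or with weighting. These counts therefore cannot be set against a background.

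In monocyte-like cells 8 of the 9 genes, all but *C3*, were at least 1.5-fold higher in the AdipoΔ/Δ library, against 11.1% of 9021 genes, and none was lower, against 4.47%. In lymphoid cells, the background class, 4 of the 4 genes with 20 UMIs (the C1q genes and *Cfp*) were also higher by this fold, against 11.2% of 9901 genes, and none was lower, against 4.22%. So were 4 of 4 in dendritic cell-like cells, against 18.4% of genes, and 5 of 5 in dividing cells, against 28.6%. In neutrophil-like cells 3 of 6 were, against 27.3%. In monocyte-like cells the ratios were 47.0 for *C1qa*, 17.3 for *C1qb* and 15.5 for *C1qc*, 11.5 (5.15 to 30.4) for *C3ar1*, from 7 and 43 UMIs, 2.63 for *C4b*, 2.22 for *Cfb*, 2.13 for *C5ar1* and 1.59 for *Cfp*. Without the cells rich in C1q, the ratios were 9.90 for *C1qa*, 6.63 for *C1qb* and 5.03 for *C1qc*, 7 genes were past this fold, and *Cfp* was at 1.49 (1.23 to 1.80). The share of all genes past this fold was not counted without these cells. Most of these ratios rest on levels that were low beside those of the leading class, as the 20.0 CPM of *C3ar1* beside 269 CPM in M2-like cells.

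**Figure D5:**
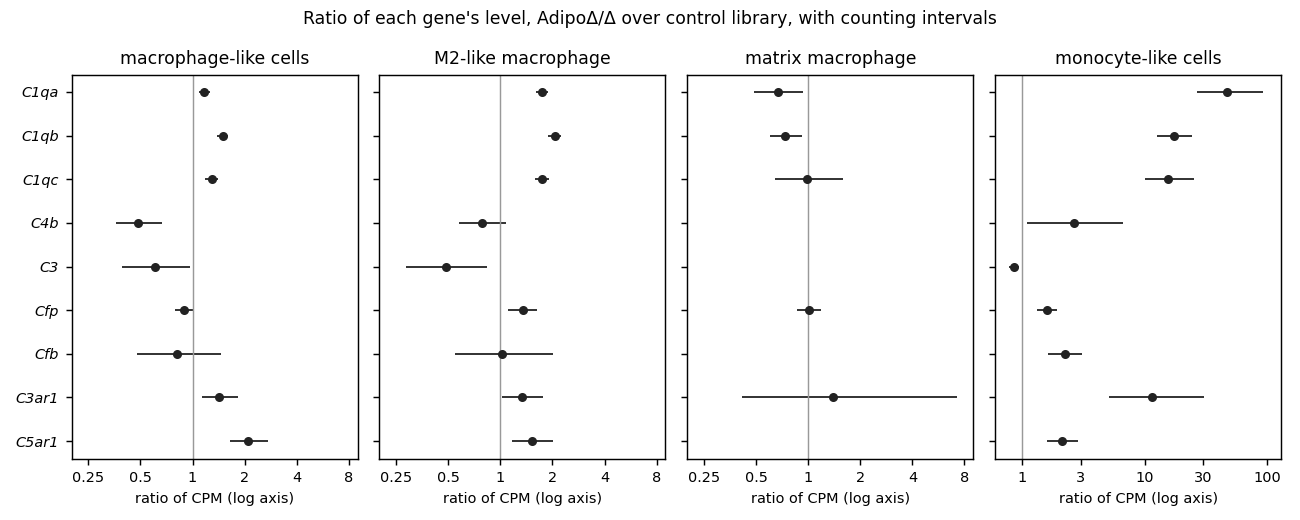
Ratio of the level of each gene in the AdipoΔ/Δ over the control library (horizontal axes, logarithmic) with 95% counting intervals, for genes with at least 20 UMIs and a control UMI, in macrophage-like cells, the M2-like and matrix subsets and monocyte-like cells. The vertical line marks 1, *C3* lies below it in 3 of the panels, and the C1q genes lie at 15.5 to 47.0 in monocyte-like cells.

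Beyond the 9 genes, a list of 47 complement genes that includes them was counted, and 27 had at least 20 UMIs over both libraries. All 10 receptor genes and all 4 alternative pathway genes did, but 1 of the 7 terminal components, 2 of 6 soluble regulators and 3 of 6 membrane regulators. *Fcna*, a ficolin of the lectin pathway, was highest in M2-like cells, at 78.4 and 164 CPM.

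*C5ar2*, a second C5a receptor, was highest in neutrophil-like cells at 107 and 106 CPM. *Cr2*, the C3d receptor of B cells, was at 141 and 146 CPM in B cell-like cells, and 1 UMI was found in the other named classes of both libraries together. *Cd55*, which encodes a protein that protects cells from C3 convertases, was highest in the same class at 424 and 557 CPM. *C6* was the 1 terminal component past 20 UMIs, with 3 and 19 UMIs in M2-like cells out of 3 and 23. In macrophage-like cells 4 of the 21 list genes with this depth were at least 1.5-fold higher and 2 lower, with the 9 genes counted in, beside 20.4% and 10.7% of all genes, so that the higher count is near the background. In monocyte-like cells 12 of 17 were higher and none lower, beside 11.1% and 4.47% of all genes.

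The profile of each gene over the 12 classes in both libraries, 24 values of log2(CPM + 10), was compared with those of 9432 other genes by Pearson's r, as a description. These profiles share libraries and depth, and *Pf4*, *Gas6*, *Ms4a7* and *Fcgr1* are on the marker lists used to name macrophage-like clusters. Nearest to *C1qa* and *C1qc* were *Pf4*, *Pmp22* and *Stab1*, the last a scavenger receptor, with r from 0.890 to 0.953. *C1qb* was nearest to *Axl*, a receptor used in the uptake of dying cells, *Pmp22* and *Rab3il1* (0.903 to 0.918). *C4b* was nearest to *Gas6*, a ligand of Axl (0.957), *Fxyd2* and *Ang*.

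*C3* was nearest to *Nat8l*, an enzyme of N-acetylaspartate synthesis (0.958), *Gm9733* and *Mocs1*. The neighbours of *C3ar1* were *Igf1* (0.961), *Stab1* and *Ms4a7*. Those of *C5ar1* were *Agap1*, *Hnmt* and *Galc*, with lower values from 0.856 to 0.881. *Cfp* was nearest to *Rbpj*, the transcription factor of Notch signalling (0.915), *Adam15* and *Kctd12*, and *Cfb* to *Ms4a6d* (0.928), *Cln8* and *Fcgr1*.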

How the data were processed

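Single-cell RNA-seq (10x 3′ v3.1) was run on sorted CD45+ Dapi- BAT cells, 1 library per condition. The authors deposited UMI count matrices made with Cell Ranger 4.0.0 against mm10, without other normalization.

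The cell filter asked for 200 or more genes per barcode and a mitochondrial share of no more than 10%. Seurat 5.3.0 and sctransform 0.4.2 in R 4.3.3 integrated the libraries over 1983 genes and 20 principal components, and clustered them at a resolution of 1. A cluster was named where its best marker list scored at least 0.5 (mean log2 fold) with at least 3 markers in 10% of its cells, and where its 10 leading genes did not favour another list. A cluster more than 3-fold below the median depth of its library stayed unnamed where none of its 10 leading genes was on that list. Scrublet in Scanpy 1.11.5 called 0.308% and 0.168% of barcodes, so that it did not work as a doublet filter and no cell was removed by it. Leaving out the highest 5% of scores was an alternative.

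UMIs were summed by class and library and scaled to CPM. Poisson, Clopper-Pearson and conditional binomial 95% intervals (SciPy 1.17.1) cover counting error only, and no test was made. All 9 genes were named, with the 3 genes of nearest profile for each (at least 100 UMIs), and genes of a wider list with at least 20 UMIs. Members and lists were chosen with earlier results of these data known. The scripts were tested on simulated data. Alternatives changed the mitochondrial and gene limits, resolution, integration, doublets, scaling, subset weights, single cells, minimum UMIs and fold. Leaving out monocyte-like cells with 10 or more C1q UMIs was chosen after seeing the data.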

Additional observations from a re-analysis of the deposited data

Results flagged for a closer look

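C1q differed in direction between macrophage subsets under the same contrast, which is why it is listed here. The AdipoΔ/Δ over control ratio of *C1qa* was 1.73 in M2-like and 0.666 in matrix cells, that of *C1qb* 2.06 and 0.738, and that of the summed C1q level 1.84 and 0.751. The third chain, *C1qc*, had a ratio of 1.73 in M2-like cells and of 0.988 (0.639 to 1.58) in matrix cells. With 1 library per condition the difference between the subsets was not tested. The M2-like ratio ran from 1.04 to 1.90 and the matrix ratio from 0.672 to 1.12 over the alternatives.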

How the results depend on the processing

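Of 417 values recomputed under alternatives, 264 stayed within counting error of the reported value or within 1.5 times a count, 140 moved further and 13 changed direction. The values below are log2 ratios of AdipoΔ/Δ over control unless named otherwise, and the cause of each move was not tested. For C1q in macrophage-like cells (0.40), the value was 0.76 and 2.20 at mitochondrial limits of 5% and 2%, 0.061 with 500 genes, 0.21 and 0.83 at resolutions of 0.5 and 2, 0.089 without integration, 0.022 without high doublet scores, -0.0053 as a mean over cells and 0.51 with common subset shares. In M2-like cells (0.88) it was, in that order, 0.055 at 5%, 0.42, 0.52, 0.36, 0.34, 0.29 and 0.41 as a mean over cells, and at 2% no M2-like class was named. In matrix cells (-0.41) it was 0.16 at 2% and -0.067 without integration. In monocyte-like cells (4.42) it was 3.31 at 5%, 3.07 at 2%, 3.36 with 500 genes, 3.94 at resolution 2, 2.67 without integration, 3.98 without high doublet scores, 3.57 as a mean over cells and 2.80 without the cells rich in C1q.

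In macrophage-like cells, *C1qa* (0.23) turned to -0.10 with 500 genes, -0.086 without integration, -0.16 without high doublet scores and -0.14 as a mean over cells, as which *C1qc* (0.37) was -0.021 and *C3ar1* (0.52) -0.21. *C3* (-0.72) turned to 0.97 with 500 genes, 0.36 at resolution 0.5, 1.43 without integration and 1.24 without high doublet scores, and *C4b* (-1.04) to 0.58 at 2%. The count of genes past 1.5-fold there (3) was 7 at 5%, 8 at 2% and 7 at resolution 2, and the count of genes higher in monocyte-like cells (8) was 5 at 2%. The share of all genes was not counted at these settings.

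The log2 level over all other cells of *C3* in Ly6Chigh cells was 1.65 at 2% and 3.12 at resolution 0.5 in the control (2.41), and 2.66, 3.48 and, as a mean over cells, 2.81 in the AdipoΔ/Δ library (3.16). In the AdipoΔ/Δ library, *Cfp* in matrix cells (2.32) was 2.49 at 5%, 2.80 at 2% and 2.18 as a mean over cells, *C3ar1* in M2-like cells (2.60) 2.84 as a mean over cells, and *C5ar1* in lipid-associated cells (2.56) 2.73 at 5%, 2.82 at 2% and 2.06 as a mean over cells. Control *C5ar1* in neutrophil-like cells (4.61) was 4.24 without mitochondrial and ribosomal protein genes and 4.26 as a mean over cells. No paired analysis was possible because each condition had 1 library. Depth limits values in the 13 control lipid-associated cells.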

Other observations

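Other genes of the wider complement list also differed in level between classes. *Cd93*, a receptor of endothelial and myeloid cells, was at 137 CPM in the control and 152 CPM in the AdipoΔ/Δ library in M2-like cells, and at 269 CPM in AdipoΔ/Δ lipid-associated cells. *Itgam*, a chain of complement receptor 3, was highest in neutrophil-like cells, at 539 and 574 CPM. *Itgax*, a chain of complement receptor 4, was highest in dividing cells of the control, at 117 CPM from 20 UMIs, and in NK cell-like cells of the AdipoΔ/Δ library, at 169 CPM. *Vsig4*, a C3b receptor of resident macrophages, had 0 UMIs in control M2-like cells, an upper limit of 10.3 CPM. In AdipoΔ/Δ M2-like cells it had 21 UMIs, at 20.0 CPM (12.4 to 30.6).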
